A study of Mus musculus with 24 samples.

Results

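The comparison described here is the effect of β-NMN on the lung transcriptome during sepsis. Its members are the 6 lung samples of the series, chosen from the labels for tissue, model and treatment, out of 24 samples in all. Male C57BL/6 mice of 7 to 12 weeks underwent cecal ligation and puncture (CLP), in which the cecum is tied off and pierced so that gut bacteria reach the peritoneum. The 3 β-NMN mice received 185 mg/kg intraperitoneally just after surgery, and the 3 vehicle mice received saline. Lungs were taken 24 h after CLP, which every mouse of both groups had, and no sham lung was analysed here. How far bacterial load differed between these 6 mice was not measured in these data. The source labels of these lungs name thioglycollate peritonitis, whereas their titles, the tissue label and the methods give CLP. The lungs were bulk tissue pieces, so fewer cells of a type and less RNA per cell cannot be told apart. Each replicate is the lung of a different mouse. The question was whether a single early dose of an NAD+ precursor altered gene expression in an organ that often fails in sepsis.

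β-NMN (β-nicotinamide mononucleotide) is converted to NAD+ by the NMNAT enzymes, and NAD+ is consumed by enzymes such as CD38, the PARPs and the sirtuins. The airways of the lung are lined by club, goblet and ciliated cells, which secrete and move mucus, whereas the alveoli are lined by type 1 cells for gas exchange and type 2 cells for surfactant. In sepsis, circulating cytokines drive acute phase genes, through transcription factors such as STAT3 and C/EBP, and interferons drive antiviral genes through the interferon-stimulated response element (ISRE) in their promoters. The defining genes of lung were present in all 6 samples, with the club cell secretoglobin gene Scgb1a1 at 29998 to 66286 CPM (read counts scaled to a common library size) and the surfactant protein C gene Sftpc at 14019 to 31020 CPM. Throughout, library sizes for CPM include the TMM factor, values are given in the order of replicates 1, 2 and 3, and fold changes are β-NMN over vehicle from edgeR's quasi-likelihood fit, with the standard error of the log2 fold change.

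One library stood apart before any group was compared. Vehicle replicate 2 had 8915366 counts, against 16654852 to 28356786 in the other 5 lungs, and 19987 genes with a count against 25241 to 27136. The SD of its log2 differences from the mean of the other lungs was 1.57, against 0.45 to 0.60, and its mean correlation with them was 0.844, against 0.946 to 0.955. Predicted and RIKEN transcripts took 2.699% of its counts, against 1.14% to 1.58%. Between the genes of the upper and the lower quartile of GC content its log2 level differed by -0.75, against 0.54 in vehicle replicate 3 and -0.10 to 0.12 in the remaining lungs. The main results are therefore given with and without vehicle replicate 2, and the part of RNA quality, depth or GC content in the results was not tested.

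**Figure D1:**
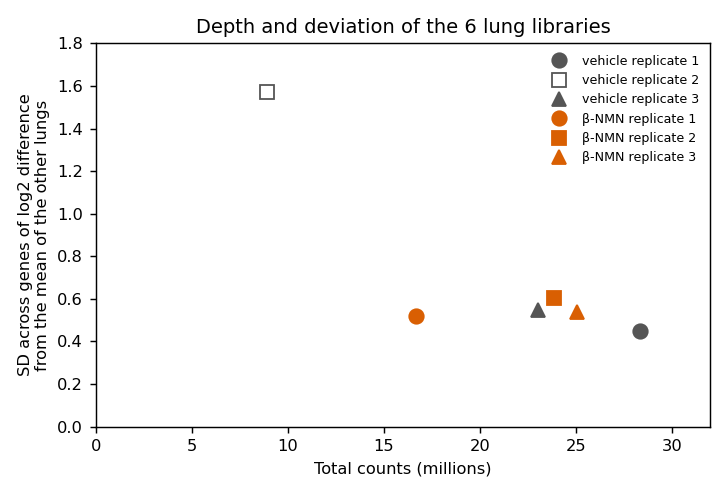
Total counts per lung library (x axis) against the SD of its log2 differences from the mean of the other libraries (y axis, log2 units), with vehicle mice in grey and β-NMN mice in orange. Vehicle replicate 2, the open square, has the lowest total and lies at 1.57, while the other 5 lungs lie between 0.45 and 0.60.

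Over the 17008 genes tested in the 6 lungs, edgeR placed 0 genes past an adjusted p of 0.05 (0% called), and over the 17513 genes tested without vehicle replicate 2 it also placed 0 (0%), with smallest adjusted p of 0.969 and 0.336. At an unadjusted p under 0.05, 84 genes were higher with β-NMN (0.494% of those tested) and 217 lower (1.28%) in the 6 lungs, and 293 were higher (1.67%) and 462 lower (2.64%) without that library. The 224 genes that both fits placed there were 74.4% of the first set and 29.7% of the second. The groups did not overlap in the 6 lungs at 760 genes that were higher with β-NMN (4.47%) and 637 that were lower (3.75%), and without vehicle replicate 2 at 1679 (9.59%) and 1845 (10.5%). The biological coefficient of variation was 0.437 with that library and 0.225 without it. Leaving out β-NMN replicate 1 as well brought it to 0.169, and A2ml1 alone of the genes tested (0.00585%) then passed, with an adjusted p of 0.0209 in edgeR.

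The other tools called few genes, and most were lower with β-NMN. DESeq2 called 8 lower genes (0.047%) and 1 higher gene (0.00588%) in the 6 lungs, and 20 lower (0.114%) and 3 higher (0.0171%) without vehicle replicate 2, which included all 9 of the first set. The limma-voom test with quality weights, which gave vehicle replicate 2 a weight of 0.10 against 0.66 to 3.44 for the others, called 7 lower genes (0.0412%) in the 6 lungs and 6 (0.0343%) without it, 5 of them in both. A2ml1, AU040972, Muc5b and Muc5ac were called by both tools with and without that library. These adjusted p are alternatives to edgeR's, and over all alternatives run the highest adjusted p of every gene named here with a fold change over the 6 lungs was 0.99998, in the edgeR fit without β-NMN replicate 2.

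Of these 4 genes, 3 (Muc5b, Muc5ac and A2ml1) belong to the list of airway mucins and secretory cells, and A2ml1 also to a squamous epithelium list. The airway list, like the other lists, was chosen with earlier results of these data known, so its counts are description. Some members, such as Agr2, passed the low-count filter mainly through vehicle lungs. Of the 25 genes listed for airway mucins and secretory cells, 23 were tested, 18 were lower and 5 higher, and their median log2 fold change was -1.72, against 0.00 over all genes tested. Without vehicle replicate 2, 20 were lower and 3 higher, with a median of -0.999 against 0.02. Groups did not overlap, all in the lower direction, at 11 of the 23 members with that library and at 14 without it, beside the 3.75% and 10.5% of all genes given above. At an unadjusted p under 0.05 in edgeR, 11 were lower with it and 12 without it, where 1.28% and 2.64% of all genes were. The median ranged from -2.06 without β-NMN replicate 2 to -0.999 without vehicle replicate 2, and was -1.09 without vehicle replicate 3.

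Muc5b (chromosome 7, 141839070 to 141873084, GRCm38) encodes the main gel-forming mucin of resting airways. It had 197, 706 and 289 CPM in vehicle lungs and 49.5, 65.2 and 24.0 CPM in β-NMN lungs. All β-NMN lungs were below all vehicle lungs, and vehicle replicate 2 was the highest. The log2 fold change was -3.10 ± 0.61 with that library and -2.40 ± 0.37 without it, and the adjusted p was 0.00172 by DESeq2 and 0.0268 by limma-voom. Muc5ac (chromosome 7, 141788972 to 141819231), the adjacent gene for the mucin of goblet cells, had 4.96, 3.03 and 5.18 CPM in vehicle lungs and 1.16, 1.74 and 0.954 CPM in β-NMN lungs. Here vehicle replicate 2 was the lowest of its group and the groups still did not overlap. Its log2 fold change was -1.78 ± 0.43, and -1.97 ± 0.34 without vehicle replicate 2, with an adjusted p of 0.0478 by DESeq2 and 0.0268 by limma-voom.

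Clca1 (chromosome 3, 145003817 to 145032776) encodes a protease that goblet cells secrete with mucus. Its counts were 215, 21 and 782 in vehicle lungs and 16, 13 and 5 in β-NMN lungs, or 7.25, 3.03 and 32.4 CPM against 0.975, 0.503 and 0.183 CPM. The groups did not overlap, and the vehicle lungs differed widely among themselves. Clca1 was past the low-count filter, at about 0.427 CPM, in 3 vehicle and 2 β-NMN lungs, so it was tested largely because of its level in vehicle lungs. The log2 fold change was -4.73 ± 1.06, and -5.26 ± 0.71 without vehicle replicate 2, ranged from -5.37 to -3.25 when single lungs were left out, and DESeq2 gave an adjusted p of 0.00172. Tff2 (chromosome 17, 31141049 to 31144282), a trefoil peptide that stabilizes mucus, had 15.5, 40.7 and 19.1 CPM in vehicle lungs and 1.95, 7.46 and 1.98 CPM in β-NMN lungs. No β-NMN lung reached a vehicle lung. Its log2 fold change was -2.71 ± 0.67, and -2.17 ± 0.51 without vehicle replicate 2, and limma-voom called it (adjusted p = 0.0405), whereas DESeq2 called it only without that library (adjusted p = 0.0272).

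A2ml1 (chromosome 6, 128539821 to 128581608), a protease inhibitor of the alpha-2-macroglobulin family made by epithelia, had 51.7, 85.1 and 66.6 CPM in vehicle lungs and 18.9, 8.20 and 12.5 CPM in β-NMN lungs. The lowest vehicle lung was well above the highest β-NMN lung, and the log2 fold change barely depended on vehicle replicate 2, at -2.36 ± 0.37 with it and -2.17 ± 0.31 without it. DESeq2 gave an adjusted p of 0.000107 and limma-voom 0.00887. Reg3g, an antibacterial lectin of mucosal surfaces, had 115, 424 and 182 CPM against 7.07, 57.9 and 7.01 CPM. Scgb3a1, a secretoglobin of the upper airway epithelium, had 490, 2257 and 666 CPM against 147, 283 and 42.4 CPM. In both genes β-NMN replicate 2 was the highest of its group and vehicle replicate 2 the highest of all, without overlap of the groups. For Reg3g the log2 fold change was -3.32 ± 1.00 with that library and -2.63 ± 0.80 without it, and that of Scgb3a1 -2.85 ± 0.86 and -1.88 ± 0.59.

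Bpifb1, a secreted lipid-binding protein of airway glands and goblet cells, had 282, 341 and 532 CPM in vehicle lungs and 39.1, 131 and 10.1 CPM in β-NMN lungs, with a log2 fold change of -2.68 ± 0.86, and -2.77 ± 0.79 without vehicle replicate 2. Leaving out single lungs moved it between -3.97 and -2.17. Bpifa1, its relative in the same secretions, did not separate the groups, with 250, 334 and 747 CPM against 22.8, 376 and 7.04 CPM. Agr2, a disulfide isomerase needed for mucin folding, was low throughout, at 2.12, 8.52 and 1.24 CPM against 0.305, 0.967 and 0.147 CPM. Bpifa1 thus had 1 β-NMN lung, replicate 2, within the vehicle range, while Bpifb1 and Agr2 had none. For Agr2 the log2 fold change was -3.00 ± 0.99, and -1.81 ± 0.68 without vehicle replicate 2, with 1 β-NMN lung past the low-count filter. For Pigr, the receptor that carries IgA across epithelia, vehicle replicate 2 set the fold change: it had 5004 CPM, against 204 and 202 in the other vehicle lungs and 129, 58.0 and 118 in β-NMN lungs. For Pigr the log2 fold change was -4.15 ± 1.37 with it and -0.999 ± 0.31 without it, and the groups did not overlap either way. For Muc4, a membrane mucin whose gene overlaps Muc20, vehicle replicate 2 was instead the lowest lung, with 35.3, 13.4 and 47.6 CPM against 17.2, 18.1 and 18.8 CPM. The groups of Muc4 separated only without that library, with a log2 fold change of -1.20 ± 0.19 and an adjusted p of 0.000361 by DESeq2.

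Scgb1a1, the most abundant product of club cells, had 49426, 66286 and 48880 CPM in vehicle lungs and 57574, 29998 and 47344 CPM in β-NMN lungs. The groups overlapped, and the log2 fold change was -0.29 ± 0.41, or -0.13 ± 0.30 without vehicle replicate 2. The summed level of the 24 airway genes in the table, most of it Scgb1a1, likewise overlapped between groups, at 33635 to 61938 CPM with β-NMN and 54260 to 79425 CPM with vehicle. The 14 ciliated cell markers summed to 1209, 633 and 1404 CPM in vehicle lungs and 1215, 855 and 1143 CPM in β-NMN lungs. Their groups did not overlap at 0 of 14 members in the 6 lungs and at 6 of 14, all lower with β-NMN, without vehicle replicate 2, where 10.5% of all genes were, with medians of -0.17 and -0.28 on the log2 scale, and of -0.037 without vehicle replicate 1. A squamous epithelium list, which also holds A2ml1, summed to 64.0, 92.5 and 86.1 CPM against 38.3, 29.1 and 26.8 CPM. Most of that was A2ml1: the other members summed to 12.3, 7.37 and 19.5 CPM against 19.4, 20.9 and 14.4 CPM, which overlapped. Of its 9 tested members 5 were higher and 4 lower, with a median of 0.05 (0.504 without vehicle replicate 3), and 6 of its defining genes were at 0 in every lung, among them the keratins Krt6a and Krt6b. How much airway each tissue piece held, and its part in these values, was not tested.

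**Figure D2:**
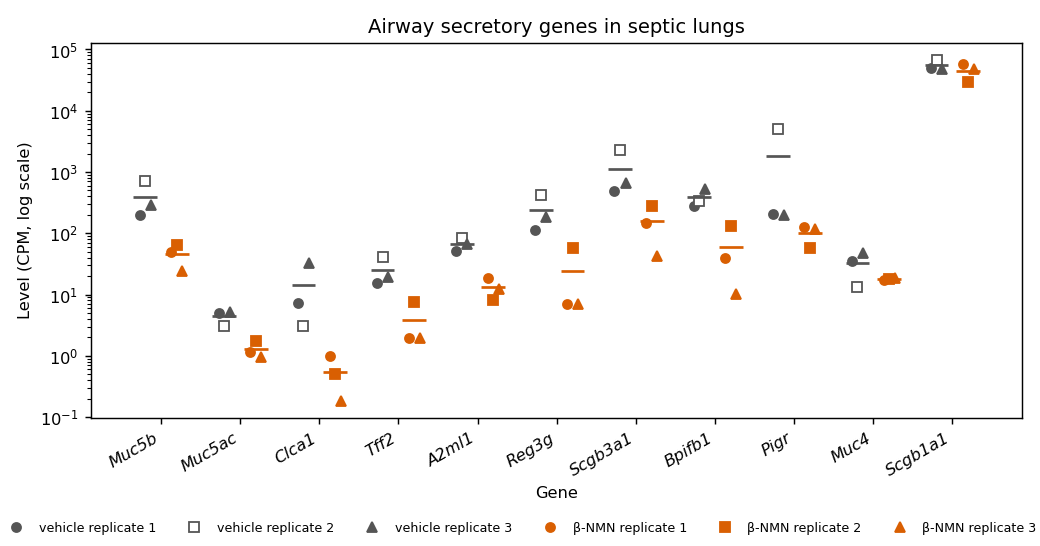
Level of 11 airway genes in each lung (y axis, CPM, log scale), with vehicle mice in grey, vehicle replicate 2 as an open square, β-NMN mice in orange and group means as bars. The groups of Muc5b, Muc5ac, Clca1, Tff2, A2ml1, Reg3g, Scgb3a1, Bpifb1 and Pigr do not overlap, whereas those of Muc4 and Scgb1a1 do.

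Outside the airway list, the smallest p belonged to AU040972 (chromosome 11, 79481719 to 79484031, minus strand), annotated as an antisense transcript inside Nf1. It had 58.6, 44.4 and 48.3 CPM in vehicle lungs and 12.0, 13.9 and 18.4 CPM in β-NMN lungs, with no overlap and little spread within groups. The log2 fold change was -1.77 ± 0.25, and -1.85 ± 0.22 without vehicle replicate 2, with an adjusted p of 3.05e-06 by DESeq2 and 0.00887 by limma-voom. Nf1, the neurofibromin gene on the plus strand, had 31.8, 53.2 and 28.2 CPM against 26.4, 38.3 and 25.5 CPM, and its groups overlapped. Without a stated strand setting for the counting, reads of AU040972 and of Nf1 cannot be told apart with certainty.

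Further genes with small p were lower. The rule that named genes by smallest p took only those without overlap, so for them that trait was part of the choice. Tmc5, a member of the transmembrane channel-like family, had 4.69, 28.5 and 8.12 CPM in vehicle lungs and 1.77, 1.28 and 1.39 CPM in β-NMN lungs. Slc5a8, a sodium-coupled carrier of short-chain fatty acids and lactate, had 1.38, 2.02 and 2.94 CPM against 0.122, 0.387 and 0.0734 CPM. Neither gene overlapped between groups, and DESeq2 gave adjusted p of 0.0172 for Tmc5 and 0.021 for Slc5a8. For Tmc5 the log2 fold change was -3.20 ± 0.72, and -2.12 ± 0.33 without vehicle replicate 2, and that of Slc5a8 -3.38 ± 0.71 and -3.40 ± 0.66. Slc5a8 was past the low-count filter, at about 0.427 CPM, in every vehicle lung but in 0 β-NMN lungs, so it was tested only because of its level in vehicle lungs. Adra2a, the alpha-2A adrenergic receptor, had 6.07, 8.23 and 5.63 CPM against 3.05, 2.05 and 1.47 CPM and was called by limma-voom (adjusted p = 0.0498). Otx1, a homeobox transcription factor, had 2.19, 8.67 and 4.35 CPM against 1.10, 0.812 and 0.697 CPM. Both were without overlap, and Otx1 was called by no tool. Without vehicle replicate 2 their log2 fold changes went from -1.60 ± 0.40 to -1.44 ± 0.34 for Adra2a and from -2.52 ± 0.59 to -1.92 ± 0.42 for Otx1. Nfil3, a transcriptional repressor tied to the clock and to cytokine responses, had 39.0, 44.5 and 29.5 CPM in vehicle lungs and 20.6, 19.9 and 19.7 CPM in β-NMN lungs, a log2 fold change of -0.91 ± 0.23, or -0.77 ± 0.18 without vehicle replicate 2. The β-NMN lungs were nearly identical to each other at Nfil3 and all below the vehicle lungs. Nwd1, which encodes a protein with NACHT and WD repeats, had 9.24, 2.17 and 11.4 CPM against 2.92, 3.52 and 4.51 CPM, and its groups separated only without vehicle replicate 2 (log2 fold change -1.49 ± 0.26, DESeq2 adjusted p = 0.00268). Chil4, a chitinase-like protein of airway epithelium chosen here after its values were seen, had 15, 0 and 24 counts in vehicle lungs and 0 in every β-NMN lung. It was filtered out in the 6 lungs, and without vehicle replicate 2 it passed the low-count filter only through vehicle replicates 1 and 3. DESeq2 and limma-voom called it there, so it is among the lower genes counted above for these tools. Those tests add nothing to its counts.

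Acute phase and antimicrobial genes formed a list whose members were mostly lower with β-NMN. Of its 22 members, all tested, 22 were lower and 0 higher in the 6 lungs, with a median log2 fold change of -0.84, and 21 were lower without vehicle replicate 2, with a median of -0.71. Groups did not overlap at 8 members in the first case and 12 in the second, all in the lower direction, beside 3.75% and 10.5% of all genes. At an unadjusted p under 0.05, 9 and 12 were lower, beside 1.28% and 2.64%. The median was -0.52 without β-NMN replicate 2 and -1.22 without β-NMN replicate 3. No member passed edgeR's adjusted threshold in either fit. The summed level overlapped between groups, at 8453, 18465 and 6865 CPM in vehicle lungs and 6619, 3206 and 7241 CPM in β-NMN lungs. Reg3g, described above, is also in this list.

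The promoters of 3 of its members are shown because the factors that drive acute phase genes bind short motifs there. Each is the 250 bases before the RefSeq start on GRCm38.p6, written 5′ to 3′ on the gene's strand, with matches to a C/EBP-type motif (TTGCNNAA) or a STAT3-type motif (TTCNNNGAA) in capitals, either strand counted.
Hpx, chr7:105600117-105600366, minus strand: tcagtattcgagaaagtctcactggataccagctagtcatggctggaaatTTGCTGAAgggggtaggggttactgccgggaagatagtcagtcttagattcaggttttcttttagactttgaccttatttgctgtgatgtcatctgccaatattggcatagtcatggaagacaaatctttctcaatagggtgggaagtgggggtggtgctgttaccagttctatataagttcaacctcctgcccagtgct
Hamp, chr7:30944030-30944279, minus strand: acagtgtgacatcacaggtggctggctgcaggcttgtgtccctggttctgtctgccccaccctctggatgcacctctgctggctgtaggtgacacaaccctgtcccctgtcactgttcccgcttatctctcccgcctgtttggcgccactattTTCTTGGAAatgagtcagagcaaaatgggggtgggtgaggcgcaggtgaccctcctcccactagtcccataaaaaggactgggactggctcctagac
Saa2, chr7:46751583-46751832, plus strand: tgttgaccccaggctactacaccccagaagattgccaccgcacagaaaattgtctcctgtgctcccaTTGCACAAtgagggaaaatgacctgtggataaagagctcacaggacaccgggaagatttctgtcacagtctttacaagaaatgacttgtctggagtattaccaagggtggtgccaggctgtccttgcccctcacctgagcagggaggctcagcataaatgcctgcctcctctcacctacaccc
Hpx and Saa2 held 1 C/EBP-type match each and Hamp 1 STAT3-type match. Among the 17 list members with a promoter in the RefSeq table, 8 (47.1%) held a C/EBP-type match and 5 (29.4%) a STAT3-type match, against 7.93% and 6.10% of the 12117 tested genes with a promoter. An NF-kappaB-type motif (GGG, any 2 bases, TTTCC) was found in 3 of the 17 (17.6%), against 1.43%. These are matches of letters, which do not show binding. The list was drawn up as acute phase genes, so the shares carry nothing about β-NMN.

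Hpx (chromosome 7, 105591613 to 105600137) encodes hemopexin, the plasma scavenger of heme. It had 19.3, 14.3 and 16.8 CPM in vehicle lungs and 3.84, 7.62 and 7.37 CPM in β-NMN lungs. The groups were well separated, and vehicle replicate 2 was the lowest of the vehicle lungs. The log2 fold change was -1.42 ± 0.34, and -1.51 ± 0.28 without that library, with an adjusted p of 0.0498 by limma-voom in the 6 lungs and 0.00542 by DESeq2 without it. Hamp (chromosome 7, 30942368 to 30944032) encodes hepcidin, the hormone that limits iron export, and overlaps the predicted gene Gm44662. It had 4.05, 11.4 and 2.98 CPM in vehicle lungs and 0.731, 0.812 and 1.21 CPM in β-NMN lungs, without overlap and with vehicle replicate 2 the highest. Its log2 fold change was -2.71 ± 0.62, and -1.92 ± 0.37 without that library, with an adjusted p of 0.0442 by DESeq2.

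Orm1, the plasma carrier orosomucoid, had 16.3, 57.1 and 18.1 CPM in vehicle lungs and 5.604, 3.91 and 7.92 CPM in β-NMN lungs. Saa2, a serum amyloid A apolipoprotein, had 74.3, 231 and 35.4 CPM against 15.8, 11.8 and 23.8 CPM. Vehicle replicate 2 was the highest lung in both genes, and the remaining vehicle lungs still lay above every β-NMN lung. The log2 fold change of Orm1 went from -2.38 ± 0.57 to -1.56 ± 0.29 when that library was left out, and that of Saa2 from -2.73 ± 0.70 to -1.68 ± 0.36, and DESeq2 called both only without it (adjusted p = 0.00392 and 0.0102). Saa3, the serum amyloid of macrophages and epithelia, was far more abundant and did not follow: it had 2014, 10305 and 1423 CPM against 1851, 402 and 2085 CPM. Its groups overlapped, and its log2 fold change was -1.66 ± 0.92 with vehicle replicate 2 and -0.24 ± 0.56 without it. Saa1 and Saa2 are near-identical in sequence, so how their reads were split is uncertain.

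Genes that define hepatocytes moved with Hpx, Hamp and Orm1. A list of 24 hepatocyte markers was added after values were seen; it shares Hpx and Hamp with the acute phase list. It summed to 99.9, 78.7 and 121 CPM in vehicle lungs and 27.3, 54.1 and 45.3 CPM in β-NMN lungs, without overlap, and no marker was at 0 in every lung. Alb, the albumin gene, had 6.04, 6.21 and 8.45 CPM against 0.731, 2.82 and 3.15 CPM. The 3 fibrinogen chains, which form clots, followed: Fga had 6.81, 4.33 and 15.0 CPM against 1.28, 3.25 and 2.38 CPM. Fgb had 6.64, 2.60 and 11.4 CPM against 1.58, 2.98 and 3.15 CPM. Fgg had 5.97, 6.93 and 9.86 CPM against 1.46, 3.09 and 3.23 CPM. Among these, only Fgb overlapped between groups, through vehicle replicate 2, and without that library DESeq2 called Fga (adjusted p = 0.00261) and Fgb (adjusted p = 0.00976). Apoa1, the main apolipoprotein of HDL, had 4.59, 1.44 and 6.09 CPM against 0.853, 2.01 and 2.09 CPM, again with an overlap through that library alone. Low values limited the list: 17 of the 24 markers were tested in the 6 lungs and 21 without vehicle replicate 2, and some passed the filter through vehicle lungs, so the medians of those tested, -1.43 and -1.66, are given as description. In the hearts of these mice the same markers summed to 454, 544 and 92.0 CPM with vehicle and 788, 36.0 and 93.1 CPM with β-NMN, which overlapped widely. The part of liver-type RNA in the lung values of Hpx, Hamp and Orm1 was not tested.

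Type I interferon response genes were lower with β-NMN mainly once vehicle replicate 2 was set aside. Of 38 listed, 37 were tested. In the 6 lungs 34 were lower and 3 higher, the median log2 fold change was -0.53, 3 had groups that did not overlap, against 3.75% of all genes, and 3 were lower at an unadjusted p under 0.05, against 1.28%. Without vehicle replicate 2 all 37 tested were lower, the median was -0.90, 19 had groups that did not overlap, against 10.5% of all genes, and 19 were lower at an unadjusted p under 0.05, against 2.64%. In neither case did a member pass the adjusted threshold of edgeR. Other lungs moved the median too: it was -0.044 without vehicle replicate 3, -0.33 without β-NMN replicate 2 and -0.93 without β-NMN replicate 3. Vehicle replicate 2 was itself low in this list, with its median member 1.30 below the mean of the other lungs on the log2 scale. The summed level was 1932, 1114 and 2657 CPM in vehicle lungs and 1115, 1043 and 1868 CPM in β-NMN lungs, so β-NMN replicate 3 was close to vehicle replicate 1.

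The promoters of 3 members are shown with their ISRE matches in capitals (GAAA, any 2 bases, GAAA, on either strand), as the element through which interferons act on these genes. Overlapping matches run together in Isg15.
Ifit1, chr19:34640639-34640888, plus strand: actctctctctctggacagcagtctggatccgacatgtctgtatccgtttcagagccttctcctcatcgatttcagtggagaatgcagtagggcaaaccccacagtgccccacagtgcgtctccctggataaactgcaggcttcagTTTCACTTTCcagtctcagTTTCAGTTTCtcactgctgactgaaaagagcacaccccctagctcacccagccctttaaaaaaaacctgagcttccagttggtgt
Rsad2, chr12:26456453-26456702, minus strand: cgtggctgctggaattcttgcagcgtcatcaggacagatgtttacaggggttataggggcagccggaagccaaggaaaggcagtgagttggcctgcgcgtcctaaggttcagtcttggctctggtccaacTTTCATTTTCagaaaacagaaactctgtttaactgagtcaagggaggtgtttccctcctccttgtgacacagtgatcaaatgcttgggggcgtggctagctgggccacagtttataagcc
Isg15, chr4:156200819-156201068, minus strand: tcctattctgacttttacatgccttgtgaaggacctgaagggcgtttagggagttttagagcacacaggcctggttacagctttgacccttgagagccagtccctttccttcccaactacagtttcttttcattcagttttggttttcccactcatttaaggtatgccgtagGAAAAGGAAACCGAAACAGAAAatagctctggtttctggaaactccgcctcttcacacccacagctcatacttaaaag
Ifit1 held 2 matches, Rsad2 1 and Isg15 3. Of the 27 list members with a promoter in the table, 13 (48.1%) held a match, against 2.81% of all tested genes with a promoter. The list was drawn up as interferon response genes, so this share carries nothing about β-NMN.

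Ifit1 (chromosome 19, 34640871 to 34650009), an antiviral protein that binds viral RNA, had 101, 234 and 117 CPM in vehicle lungs and 40.6, 22.6 and 71.9 CPM in β-NMN lungs. Rsad2 (chromosome 12, 26442746 to 26456452), which encodes viperin, had 28.5, 24.8 and 48.3 CPM against 14.6, 16.05 and 22.7 CPM. Herc6, the ligase that attaches ISG15 to proteins in mice, had 16.5, 27.4 and 19.3 CPM against 11.7, 8.04 and 15.9 CPM. These were the 3 members whose groups did not overlap in the 6 lungs, and β-NMN replicate 3 was the highest of its group in each. Their log2 fold changes were -1.74 ± 0.52 for Ifit1, -0.93 ± 0.33 for Rsad2 and -0.82 ± 0.34 for Herc6, and -1.27 ± 0.40, -1.10 ± 0.27 and -0.59 ± 0.28 without vehicle replicate 2. Leaving out single lungs moved them between -2.24 and -1.27 for Ifit1, -1.14 and -0.57 for Rsad2, and -1.08 and -0.59 for Herc6. Reads of the closely related Ifit genes may have been split between them.

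Isg15, a ubiquitin-like modifier, had 62.2, 23.5 and 90.2 CPM in vehicle lungs and 25.0, 16.2 and 52.5 CPM in β-NMN lungs. Irf7, the factor that amplifies interferon production, had 92.5, 20.2 and 165 CPM against 30.4, 30.4 and 84.8 CPM. Zbp1, a sensor of left-handed nucleic acids, had 30.3, 19.4 and 52.9 CPM against 15.2, 10.5 and 26.2 CPM. Vehicle replicate 2 lay among the β-NMN lungs at Isg15 and Zbp1 and below them at Irf7, while the other vehicle lungs were above every β-NMN lung at these genes. With and without it the log2 fold changes were -0.91 ± 0.59 and -1.28 ± 0.43 for Isg15, -0.93 ± 0.75 and -1.40 ± 0.46 for Irf7, and -0.99 ± 0.47 and -1.26 ± 0.37 for Zbp1. Leaving out single lungs moved them between -1.52 and -0.45 for Isg15, -1.61 and -0.22 for Irf7, and -1.41 and -0.51 for Zbp1. Of 19 tested GTPases that interferon-gamma induces, 16 were lower in the 6 lungs and 17 without vehicle replicate 2, with medians of -0.46 and -0.67, and groups of 1 and 5 of them did not overlap in that direction, beside 3.75% and 10.5% of all genes. Their median was -0.014 without vehicle replicate 3, -0.27 without β-NMN replicate 2 and -0.86 without β-NMN replicate 3.

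**Figure D3:**
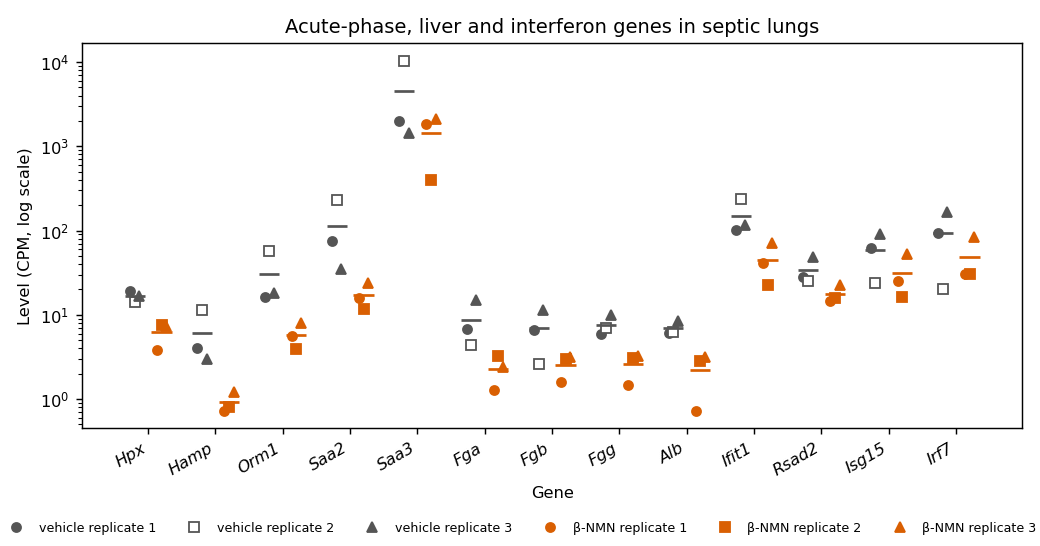
Level of acute phase, liver and interferon genes in each lung (y axis, CPM, log scale), with vehicle mice in grey, vehicle replicate 2 as an open square, β-NMN mice in orange and group means as bars. Vehicle replicate 2 is the highest lung at Saa2, Orm1 and Hamp and lies among the β-NMN lungs at Isg15 and below them at Irf7.

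Cytokine and chemokine genes moved less uniformly. Of 35 tested cytokines and receptors, 19 were lower and 16 higher, and the median log2 fold change was -0.04 in the 6 lungs and -0.08 without vehicle replicate 2, with 0.056 without vehicle replicate 3. Of 28 tested chemokines, 20 were lower, with a median of -0.49, and 19 without that library, with a median of -0.39. Groups did not overlap at 5 lower and 3 higher chemokines in the 6 lungs, beside 3.75% and 4.47% of all genes, and at 7 lower and 4 higher ones without it, beside 10.5% and 9.59%. The chemokine median was -0.28 without β-NMN replicate 2 and -0.89 without β-NMN replicate 3. Il17a, Il21 and Il22 were at 0 in every lung.

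Il1b, the inflammasome cytokine, had 12.4, 14.2 and 14.5 CPM in vehicle lungs and 5.79, 5.99 and 9.57 CPM in β-NMN lungs. Vehicle replicate 2 was within its group here, no lung crossed over, and the log2 fold change was -0.94 ± 0.30 with it and -0.91 ± 0.26 without it. Il4ra, the receptor chain for IL-4 and IL-13, had 262, 344 and 224 CPM against 190, 162 and 182 CPM, also without overlap (log2 fold change -0.63 ± 0.26, or -0.45 ± 0.18 without vehicle replicate 2). Il6 was near the limit of detection, at 0.708, 1.01 and 0.497 CPM against 0.183, 0.425 and 0.293 CPM. For Csf3, the granulocyte growth factor G-CSF, vehicle replicate 2 had 20.9 CPM, against 1.59 and 0.497 in the other vehicle lungs and 0.122, 0.0773 and 0.587 in β-NMN lungs, which overlapped.

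Cxcl5, a neutrophil attractant of epithelia and platelets, had 1.82, 6.65 and 2.11 CPM in vehicle lungs and 0.731, 0.348 and 0.477 CPM in β-NMN lungs, with a log2 fold change of -2.74 ± 0.67, and -1.95 ± 0.45 without vehicle replicate 2. Ccl3, which attracts monocytes and neutrophils, had 4.55, 11.6 and 2.90 CPM against 1.89, 0.851 and 2.27 CPM. Ccl7, a monocyte attractant, had 7.29, 18.6 and 9.11 CPM against 5.36, 3.09 and 6.53 CPM. All 3 were free of overlap and highest in vehicle replicate 2. Ccl20, the ligand of CCR6, had 34.0 CPM in that library, against 1.18 and 1.28 in the other vehicle lungs and 0.183, 0.116 and 0.880 in β-NMN lungs, so that its log2 fold change went from -4.85 ± 1.62 to -1.57 ± 0.73 without it. Ccl20 was past the low-count filter in 3 vehicle lungs but in 1 β-NMN lung, so it was tested because of its level in vehicle lungs. Cxcl5 was past it in 3 vehicle and 2 β-NMN lungs. Il33, an alarmin of epithelial and stromal nuclei, was higher, with 17.2, 22.4 and 29.8 CPM in vehicle lungs and 33.3, 46.3 and 31.9 CPM in β-NMN lungs. The groups of Il33 did not overlap, by a narrow margin, and its log2 fold change was 0.68 ± 0.28, or 0.66 ± 0.27 without vehicle replicate 2.

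Genes of alveolar type 2 cells were mostly higher with β-NMN. Of 17 listed and tested, 16 were higher in the 6 lungs, with a median log2 fold change of 0.42, and 15 without vehicle replicate 2, with a median of 0.22. Groups did not overlap at 4 members in the first case and 5 in the second, all higher, beside 4.47% and 9.59% of all genes. The summed level of the list overlapped, at 27002, 29683 and 29643 CPM in vehicle lungs and 47628, 31986 and 27203 CPM in β-NMN lungs. Lamp3 (chromosome 16, 19653378 to 19706375), a membrane protein of the lamellar bodies that store surfactant, had 151, 174 and 197 CPM in vehicle lungs and 380, 305 and 276 CPM in β-NMN lungs. The lowest β-NMN lung was above the highest vehicle lung, and the log2 fold change was 0.88 with or without vehicle replicate 2, with errors of 0.25 and 0.22. Etv5, a transcription factor that maintains type 2 cells, had 72.2, 82.2 and 95.1 CPM against 140, 135 and 103 CPM. Cxcl15, a lung-specific chemokine of epithelium, had 503, 168 and 474 CPM against 825, 951 and 551 CPM. Hc, which encodes complement C5 and is expressed in type 2 cells, had 146, 79.2 and 195 CPM against 207, 420 and 236 CPM. None of these overlapped between groups, though vehicle replicate 2 was the lowest lung at Cxcl15 and Hc. With and without that library the log2 fold changes were 0.60 ± 0.24 and 0.59 ± 0.21 for Etv5, 1.02 ± 0.47 and 0.66 ± 0.25 for Cxcl15, and 1.04 ± 0.43 and 0.75 ± 0.31 for Hc.

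Sftpa1 and Sftpc, the genes of surfactant proteins A and C, overlapped between groups. Sftpa1 had 2780, 1882 and 3482 CPM in vehicle lungs and 4116, 3397 and 3403 CPM in β-NMN lungs. Sftpc had 15060, 19362 and 15079 CPM against 31020, 16298 and 14019 CPM. Only β-NMN replicate 1 was outside the vehicle range of Sftpc by a clear margin, and without it the log2 fold change of Sftpc turned from 0.31 to -0.12. With and without vehicle replicate 2 it was 0.42 ± 0.33 and 0.22 ± 0.22 for Sftpa1. The markers of type 1 cells, 12 in number, had a median of 0.15, with 7 higher and 5 lower, and of 0.16 without vehicle replicate 2, with 11 higher. It was 0.33 without vehicle replicate 3.

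Fold changes of vessel genes had both signs. For the 31 endothelial activation and barrier genes the median log2 fold change was 0.21 in the 6 lungs and 0.01 without vehicle replicate 2, and the sign depended on single lungs, with -0.07 without β-NMN replicate 3 and 0.46 without vehicle replicate 1. Their groups did not overlap at 3 higher and 5 lower members in the 6 lungs, beside 4.47% and 3.75% of all genes, and at 4 higher and 5 lower ones without vehicle replicate 2, beside 9.59% and 10.5%. The 5 lower members in the 6 lungs, named after their values were seen, were Selp, Nos3, Procr, Ackr1 and Klf4. Selp, the adhesion molecule P-selectin, had 8.43, 16.04 and 8.74 CPM in vehicle lungs and 2.19, 3.91 and 8.22 CPM in β-NMN lungs, and Nos3, the endothelial nitric oxide synthase, had 33.5, 41.5 and 33.2 CPM against 24.3, 29.04 and 29.5 CPM. Among the 3 higher members was Angpt1. Angpt1, the ligand of TIE2 that stabilizes vessels, had 27.7, 21.4 and 21.5 CPM in vehicle lungs and 41.8, 45.6 and 36.2 CPM in β-NMN lungs. The groups were separate, and the log2 fold change was 0.81 ± 0.22, or 0.74 ± 0.20 without vehicle replicate 2. Aplnr, the apelin receptor of endothelium, had 5.84, 3.18 and 5.55 CPM against 9.26, 22.7 and 8.80 CPM. Its groups did not overlap, β-NMN replicate 2 was the highest lung, and the log2 fold change was 1.47 ± 0.47, or 1.25 ± 0.41 without vehicle replicate 2. Leaving out single lungs moved that of Aplnr between 0.88 and 1.71. The 16 lung capillary markers had a median of 0.40 in the 6 lungs and 0.15 without vehicle replicate 2, with groups of 2 members without overlap in each case, both higher, beside 4.47% and 9.59% of all genes.

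Platelet and megakaryocyte genes were higher in 11 of 12 tested members with and without vehicle replicate 2, with medians of 0.64 and 0.44. Groups did not overlap at 4 higher and 1 lower members in the 6 lungs, beside 4.47% and 3.75% of all genes, and at 7 higher and 1 lower without that library, beside 9.59% and 10.5%. The summed level of the list overlapped, at 129, 148 and 121 CPM in vehicle lungs and 156, 153 and 139 CPM in β-NMN lungs. Clec1b, the platelet receptor for podoplanin, had 8.23, 4.91 and 7.17 CPM in vehicle lungs and 17.5, 10.9 and 14.2 CPM in β-NMN lungs. Ppbp, which encodes the platelet chemokine CXCL7, had 5.30, 3.18 and 4.97 CPM against 8.28, 14.7 and 7.52 CPM. Treml1, a receptor of platelet granules, had 0.978, 1.30 and 0.994 CPM against 2.13, 2.20 and 1.32 CPM. All 3 were without overlap, the last only just. With and without vehicle replicate 2 the log2 fold changes were 1.06 ± 0.32 and 0.88 ± 0.24 for Clec1b, 1.17 ± 0.39 and 0.99 ± 0.32 for Ppbp, and 0.80 ± 0.42 and 0.92 ± 0.40 for Treml1.

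Among stromal genes, Ogn, a small leucine-rich proteoglycan, had 34.7, 17.3 and 38.7 CPM in vehicle lungs and 56.7, 142 and 57.6 CPM in β-NMN lungs. Col6a3, a chain of type VI collagen, had 13.6, 2.17 and 18.9 CPM against 33.3, 39.7 and 30.04 CPM. Arxes2, an adipocyte-related gene with a near-identical neighbour, had 4.82, 1.30 and 6.25 CPM against 12.9, 16.9 and 10.3 CPM. In these genes vehicle replicate 2 was the lowest lung and β-NMN replicate 2 the highest, with no overlap. For Ogn the log2 fold change was 1.49 ± 0.48, and 1.22 ± 0.39 without vehicle replicate 2, and it ranged from 0.91 to 1.72 when single lungs were left out. Without vehicle replicate 2, DESeq2 called Col6a3 (log2 fold change 1.08 ± 0.22 in edgeR, DESeq2 adjusted p = 0.0157) and Arxes2 (1.27 ± 0.26, DESeq2 adjusted p = 0.0292). The fibroblast and matrix list as a whole, 27 genes, had a median of 0.31 in the 6 lungs of -0.02 without that library and of 0.15 without β-NMN replicate 2.

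Abca17, a lipid transporter of the ABCA subfamily, was the gene that DESeq2 called as higher in the 6 lungs (adjusted p = 0.0367). It had 14, 0 and 12 counts in vehicle lungs and 41, 75 and 54 in β-NMN lungs, so its level was low, with at most 2.90 CPM. Its log2 fold change was 2.33 ± 0.41 without vehicle replicate 2, in which it was at 0. Further higher genes follow, taken by the rule of smallest p among genes without overlap between groups. Tinag, a basement membrane antigen, had 3.51, 2.89 and 2.82 CPM in vehicle lungs and 7.98, 7.54 and 5.24 CPM in β-NMN lungs. Igip, which encodes an IgA-inducing protein, had 11.5, 12.4 and 11.02 CPM against 26.7, 16.7 and 18.7 CPM. Neither gene overlapped between groups. AI504432, a long noncoding transcript, had 7.25, 6.65 and 6.63 CPM against 11.9, 13.3 and 10.7 CPM, and vehicle lungs were nearly alike at this gene. With and without vehicle replicate 2 the log2 fold changes were 1.17 ± 0.33 and 1.12 ± 0.28 for Tinag, 0.83 ± 0.26 and 0.88 ± 0.24 for Igip, and 0.80 ± 0.25 and 0.78 ± 0.20 for AI504432.

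**Figure D4:**
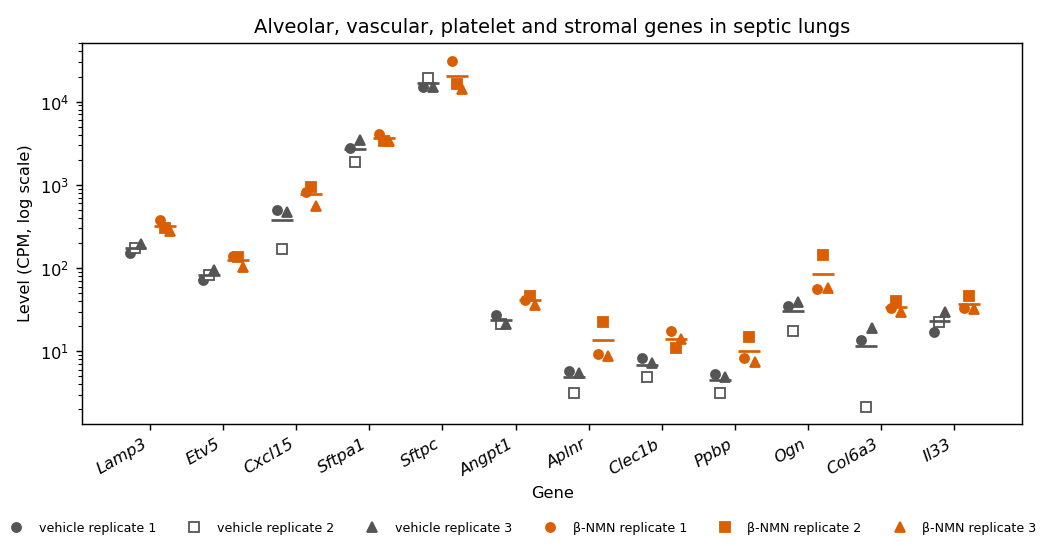
Level of 12 alveolar, vascular, platelet and stromal genes in each lung (y axis, CPM, log scale), with vehicle mice in grey, vehicle replicate 2 as an open square, β-NMN mice in orange and group means as bars. The groups do not overlap except at Sftpa1 and Sftpc, and vehicle replicate 2 is the lowest lung at Col6a3, Ogn, Aplnr and Cxcl15.

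Several stress genes had large fold changes that rested on vehicle replicate 2. Mt1, a metallothionein that binds zinc, had 6873 CPM in that library, against 353 and 231 in the other vehicle lungs and 223, 79.6 and 188 in β-NMN lungs. Mt2, its neighbour, had 572 CPM there, against 32.3 and 14.8 and 14.4, 5.80 and 16.2. Their log2 fold changes went from -3.93 ± 1.37 to -0.84 ± 0.39 for Mt1 and from -4.08 ± 1.40 to -0.96 ± 0.44 for Mt2 without it. Nfkbia, the NF-kappaB inhibitor, had 5993 CPM there, against 573 and 513 and 839, 305 and 455, and its log2 fold change went from -2.15 ± 1.02 to -0.03 ± 0.37. Slc7a11, the cystine carrier, had 85.7 CPM there and 1.16 to 1.89 CPM in all other lungs, and its log2 fold change went from -4.34 ± 1.61 to -0.21 ± 0.37. Gpx2, an epithelial glutathione peroxidase, had 480 CPM there and 19.6 to 39.5 CPM elsewhere, and its log2 fold change went from -2.76 ± 1.05 to -0.50 ± 0.27. At all 5 genes most of the difference was gone without this library.

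A smaller difference remained at other NRF2 targets. Aldh3a1, an aldehyde dehydrogenase of airway epithelium, had 69.1, 81.5 and 60.1 CPM in vehicle lungs and 45.1, 37.9 and 36.2 CPM in β-NMN lungs. Akr1b8, an aldo-keto reductase, had 22.1, 68.8 and 19.1 CPM against 14.4, 12.1 and 13.2 CPM. Neither overlapped, and the log2 fold changes went from -0.82 ± 0.22 to -0.70 ± 0.18 for Aldh3a1 and from -1.46 ± 0.51 to -0.64 ± 0.18 for Akr1b8 when vehicle replicate 2 was left out. Of the 26 NRF2 antioxidant genes, 21 were lower in the 6 lungs with a median of -0.57, and 19 without that library with a median of -0.24. The 21 glucocorticoid-responsive and metallothionein genes had medians of -0.42 and -0.33, with 17 and 19 lower, and of -0.26 without β-NMN replicate 2. The 17 NF-kappaB feedback genes had medians of -0.32 and -0.30, and of -0.17 without vehicle replicate 3, -0.18 without β-NMN replicate 2 and -0.45 without β-NMN replicate 3. The groups of 2 and 9 of them did not overlap in the lower direction, beside 3.75% and 10.5% of all genes.

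Of 23 genes of NAD synthesis, 20 were tested, with medians of -0.07 in the 6 lungs and -0.08 without vehicle replicate 2, and of 0.050 and 0.033 without β-NMN replicates 2 and 3. In edgeR 0 of the 20 had an unadjusted p under 0.05 in either fit, beside 0.494% higher and 1.28% lower of all genes in the 6 lungs and 1.67% and 2.64% without vehicle replicate 2, so a list of this size could hold none at the rate of all genes. Groups did not overlap at 1 member, Nmnat3, which was lower, in the 6 lungs, beside 3.75% of all genes, and at 0 without that library, beside 9.59% higher and 10.5% lower. Nampt, the rate-limiting enzyme of the salvage pathway, had 145, 183 and 113 CPM in vehicle lungs and 93.0, 95.3 and 144 CPM in β-NMN lungs. Nmnat1, the nuclear enzyme that turns NMN into NAD+, had 4.92, 2.17 and 4.02 CPM against 3.17, 4.83 and 4.55 CPM. The groups overlapped at both genes. Nmnat3, its mitochondrial relative, had 4.99, 7.22 and 4.18 CPM against 3.72, 3.29 and 4.18 CPM. Nmrk1, the riboside kinase, had 4.82, 7.22 and 4.72 CPM against 5.42, 4.06 and 4.25 CPM. Slc12a8, described as an NMN transporter, was below 1 CPM in every lung. Nmrk1 overlapped between groups, and at Nmnat3 replicate 3 of either group had nearly the same level.

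Cd38, the ectoenzyme that cleaves NAD+, had 31.6, 49.1 and 26.6 CPM in vehicle lungs and 29.9, 29.2 and 23.4 CPM in β-NMN lungs. Nnmt, which methylates nicotinamide, had 10.1, 22.1 and 9.32 CPM against 15.0, 8.55 and 11.7 CPM, and the sign of its difference depended on vehicle replicate 2, at -0.22 ± 0.42 with it and 0.27 ± 0.26 without it. Groups overlapped at both. The list of NAD+ consumers had medians of 0.08 over 28 genes and of -0.03 over 29 without that library. Their groups did not overlap at 1 higher member in the 6 lungs, beside 4.47% of all genes, and at 4 higher and 4 lower ones without it, beside 9.59% and 10.5% of all genes. At an unadjusted p under 0.05 there were 0 members in the 6 lungs and, without that library, 2 lower ones, beside 2.64% of all genes. The 2 were Parp10 and Parp12, which transfer single ADP-ribose units and respond to interferon. Parp10 had 54.3, 39.7 and 66.1 CPM against 35.5, 36.5 and 50.5 CPM, and Parp12 had 82.0, 55.8 and 99.5 CPM against 44.4, 60.6 and 78.5 CPM. With β-NMN replicate 3 close to vehicle replicate 1 at both, the groups separated only without vehicle replicate 2, where vehicle lungs were above β-NMN lungs.

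Markers of leukocytes overlapped between groups in their summed levels. Of 38 tested neutrophil granule and alarmin genes, 24 were lower and 14 higher in the 6 lungs, with a median of -0.05, and 30 were lower and 8 higher without vehicle replicate 2, with a median of -0.17. Without vehicle replicate 3 the median was 0.29. Their summed level was 10241 to 12346 CPM in vehicle lungs and 9696 to 12222 CPM in β-NMN lungs. B cell markers had medians of 0.61 and 0.68 and sums of 53.3, 97.4 and 43.2 CPM against 73.1, 101 and 47.6 CPM, which overlapped, and the median was 0.31 without β-NMN replicate 2. T and NK cell markers had medians of -0.35 and -0.05, with -0.14 without vehicle replicate 1, and also overlapped in sum. Complement genes, 27 in number, had medians of -0.08 and -0.22, and of 0.061 without vehicle replicate 3. Cardiac muscle genes, which the muscle sleeves of mouse pulmonary veins express, were lower in 14 of 17 tested members, with medians of -1.12 and of -0.74 without vehicle replicate 2, and of -0.70, -1.69 and -0.63 when β-NMN replicates 1, 2 and 3 were left out in turn. Myl4, the atrial myosin light chain among them, had 44.6, 212 and 44.6 CPM in vehicle lungs and 18.9, 37.4 and 11.8 CPM in β-NMN lungs, without overlap. The cardiac list summed to 389, 904 and 403 CPM against 222, 383 and 122 CPM, so β-NMN replicate 2 was near the lower vehicle lungs, and how the tissue pieces were cut was not tested.

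**Figure D5:**
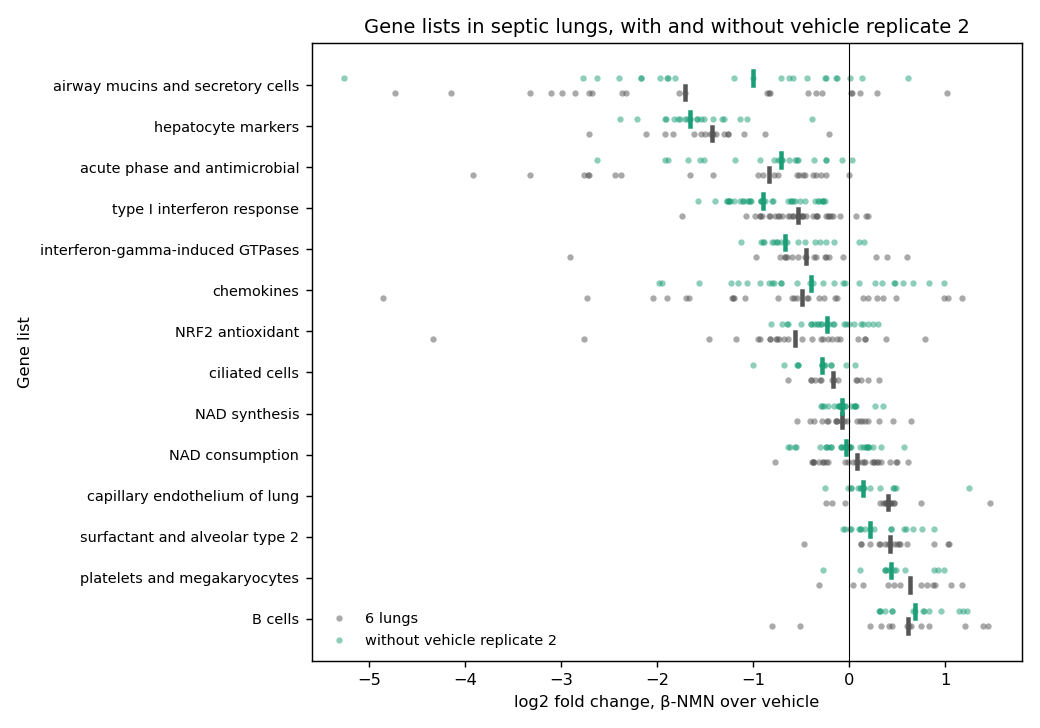
Log2 fold change of each tested member of 14 gene lists (x axis, β-NMN over vehicle) with medians as bars, in grey for the 6 lungs and in green without vehicle replicate 2. The medians of the airway, acute phase and interferon lists lie below 0 in both, at -1.72 and -0.999, -0.84 and -0.71, and -0.53 and -0.90, while those of the type 2 cell and platelet lists lie above 0 in both.

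The hearts of the same 6 mice were used to ask whether the lung differences were particular to the lung. The test of the difference between the effects in the 2 organs placed 0 of 18318 genes past an adjusted p of 0.05 (0%), and 797 (4.35%) at an unadjusted p under 0.05 in edgeR, so no lung effect is shown to differ from that in the heart. The count was also 0 when the mouse of vehicle replicate 2 was left out in both organs. The heart of that mouse stood apart too. Its mitochondrially encoded genes summed to 101301 CPM, against 169819 to 227519 CPM in the other hearts. Its neutrophil granule and alarmin genes summed to 2515 CPM, against 709 to 1242 CPM. The heart values below include it. Clca1, at no more than 0.596 CPM in any heart, had an adjusted p of 0.960 in edgeR for that difference. Il33 had 11.4, 85.4 and 16.2 CPM in vehicle hearts and 3.46, 4.03 and 2.42 CPM in β-NMN hearts, opposite to the direction in lungs, with an adjusted p of 0.960 for the difference in edgeR. Of the acute phase and liver genes, Hpx had a log2 fold change of 0.83 ± 1.67 in hearts, and Fga one of 0.63 ± 1.67, both smaller than their errors. Il1b, by contrast, was lower in both organs, at -1.35 ± 0.33 in hearts against -0.94 ± 0.30 in lungs.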

How the data were processed

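RNA was measured in lung pieces of 3 vehicle and 3 β-NMN mice after CLP, grouped by GEO's labels. The deposited table holds read counts per gene symbol without normalization, which the authors made from poly(A)-selected RNA (NovaSeq reads), mapped to mm10 with STAR (2.7.3a in the submitters' processing notes) and counted with featureCounts 2.0.0. Reads are called single-end in one place of the methods and paired-end in another. The annotation and whether counting used strand are not given in the sources used here. Of 54658 symbols, 32971 had a count in any lung and 54106 were found in GENCODE M21, whose positions are printed. No lung was a copy of another, since any 2 lungs differed at 25769 symbols or more.

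Counts were tested with the quasi-likelihood F-test of edgeR 4.0.16 (R 4.3.3) in its older form, after filterByExpr, TMM and estimateDisp, with Benjamini-Hochberg adjustment over all genes tested and a threshold of 0.05. Log2 CPM used a prior count of 2. An exact two-sided permutation test of 3 against 3 cannot give a p below 0.1, which every named gene whose 6 lungs do not overlap between groups reached. Total counts per lung ranged from 8915366 to 28356786, and errors hold both counting error and the spread between lungs. Lung and heart effects were compared through an interaction term over 12 libraries, with hearts matched to lungs by the mouse code in the titles, since 2 β-NMN hearts carry the number 3. Alternatives were DESeq2 1.42.0, its size factors, limma-voom with quality weights (limma 3.58.1), no filter, the newer and the robust fits, both organs in one fit, the replicate number as a block and leaving out each lung in turn. DESeq2 and limma-voom without vehicle replicate 2, and the fit without β-NMN replicate 1 as well, were chosen after seeing the data. Fits were tested on simulated data.

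Genes were named by a rule: the 12 higher and 12 lower genes of smallest p without overlap whose mean log2 CPM was 1 or more, genes called by any tool over the 6 lungs, the 8 of each direction without vehicle replicate 2, the 3 of smallest p per list, and the NAD genes Nampt, Nmnat1, Nmnat3, Nmrk1, Slc12a8, Cd38 and Nnmt. Of these 142 genes a part is described. Others, such as Agr2, Alb, Apoa1, Bpifa1, Bpifb1, Ccl3, Ccl7, Chil4, Cxcl15, Gpx2, Il6, Il33, Irf7, Isg15, Nf1, Parp10, Parp12, Pigr, Reg3g, Saa2, Saa3, Scgb1a1, Scgb3a1, Sftpa1, Sftpc and Zbp1, were named after their values were seen. The members and the 41 gene lists were chosen with earlier results of these data known, and the hepatocyte list was added after seeing the data. Promoters are from RefSeq on GRCm38.p6.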

Additional observations from a re-analysis of the deposited data

How the results depend on the processing

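The count of genes past an adjusted p of 0.05 was 0 with edgeR in the 6 lungs and remained 0 with DESeq2's size factors, without the low-count filter, with the newer and robust forms, with both organs in one fit, with the replicate number as a block, and in each fit that left out 1 lung (0 to 0). It was 9 with DESeq2, 7 with limma-voom, 1 without vehicle replicate 2 and β-NMN replicate 1 together, and, without vehicle replicate 2, 23 with DESeq2 and 6 with limma-voom. The count at an unadjusted p under 0.05, 301 in the 6 lungs, was 311 with DESeq2's size factors, 855 without the filter, 524 with DESeq2, 1271 with limma-voom, 700 with both organs in one fit and 107 with the replicate block. It ranged from 127 (without β-NMN replicate 2) to 755 (without vehicle replicate 2) when 1 lung was left out, with 468 and 669 for the omission of vehicle replicates 1 and 3, and 166 and 185 for that of β-NMN replicates 1 and 3. It was 1180 without vehicle replicate 2 and β-NMN replicate 1 together, and 756 with DESeq2 and 1139 with limma-voom when vehicle replicate 2 was left out. The 1397 genes without overlap became 2347 to 3682 when 1 lung was left out and 6356 without both of those lungs; smaller groups overlap less by construction. Same-numbered lungs did not deviate together (correlations of -0.52, -0.32 and 0.30), so the numbers were not taken to pair the samples. The organ difference stayed at 0 genes except without the filter, where 2 passed.

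The sign of 5 named genes depended on the processing, and the cause was not tested. Nf1 was at 0.0013 without vehicle replicate 2 and 0.085 when β-NMN replicate 1 was left out as well, with a range of -0.52 to 0.0013 when 1 lung was left out. Nmnat1 was at -0.060 with limma-voom and, without vehicle replicate 2, at -0.091 in edgeR, -0.094 in DESeq2 and -0.010 in limma-voom (range with 1 lung left out -0.091 to 0.43). Nnmt was at 0.19 with limma-voom, 0.27 without vehicle replicate 2, 0.066 without both lungs, and 0.27 and 0.21 with DESeq2 and limma-voom without vehicle replicate 2 (range -0.43 to 0.27). Slc12a8 was at -0.26 without that library, -0.29 without both, and -0.27 and -0.13 with the other tools without it (range -0.26 to 0.81). Sftpc was at -0.12 without β-NMN replicate 1 (range -0.12 to 0.53). Of the 86 genes run under every alternative, the others kept their sign. Chil4 was not among them, since it was filtered out in the 6 lungs. The sign of a list's median changed for 9 of 42 lists without vehicle replicate 2, the fibroblast and NAD consumption lists among them.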

Other observations

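Further lists are given by their medians, first in the 6 lungs and then without vehicle replicate 2. Monocyte genes were at -0.45 and -0.34, with 10 and 11 of 15 lower, and their summed level was 738 CPM in vehicle replicate 2, against 1616 to 1834 CPM in the other 5 lungs. AP-1 and immediate early genes were at -0.32 and -0.09, and smooth muscle genes at 0.02 and -0.04. Circadian clock genes were at -0.06 and 0.02, heat shock and chaperone genes at -0.01 and -0.03, hypoxia and glycolysis genes at 0.05 and -0.09, and cell cycle genes at -0.05 and -0.07. Coagulation genes were at 0.06 and -0.07, and erythroid genes at -0.05 in both, although the erythroid genes summed to 11916 CPM in vehicle replicate 2, against 2045 to 4159 CPM in the other lungs. The erythroid median was 0.21 without vehicle replicate 1, -0.22 without β-NMN replicate 2 and 0.17 without β-NMN replicate 3.

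The deviations of vehicle replicate 2 and β-NMN replicate 1 from their group means correlated at 0.51 across genes, the highest value among the pairs of lungs from different groups. Genes are not independent replicates, and deviations within a group of 3 are tied to each other, so this is a description.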
